A study of Mus musculus with 16 samples.

Results

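The response to PT-2385 was compared between whole ovary and whole kidney as a tissue-by-treatment interaction, that is the log2 change with PT-2385 in ovary minus the log2 change in kidney. All 16 RNA sequencing libraries of the series entered the comparison, 4 in each of the 4 groups, and the shared and opposite responses were described over the 13360 of 19977 tested genes (66.88%) that were expressed in both organs, with a mean of at least 1 CPM in each (counts per 1e6 assigned read pairs, with library sizes scaled by TMM, the trimmed mean of M-values). The groups were ovary with vehicle, ovary with PT-2385, kidney with vehicle and kidney with PT-2385. All came from female wild-type CBAF1 mice aged 21 days. PT-2385 was injected intraperitoneally at 7.5 mg/kg at intervals of 12 h for 4 days, and the vehicle was saline with 5% DMSO. Vehicle and PT-2385 groups alike also received 5 IU PMSG, then 5 IU hCG 48 h later, with organs taken 13 h after hCG, so every library comes from a gonadotrophin-stimulated immature mouse. Whether each library is its own animal, or an ovary and a kidney came from 1 mouse, is not in the labels, so p-values here measure the spread between these samples, which may be technical.

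PT-2385 is a small molecule that sits in a pocket of HIF-2α, the hypoxia-inducible factor encoded by Epas1, and blocks its pairing with ARNT. The HIF-2 dimer binds hypoxia response elements and drives genes for erythropoietin, iron uptake, vessel signalling and lipid handling. In kidney its best known site of action is the interstitial cell that makes erythropoietin, and endothelial cells carry it in many organs. In the stimulated ovary the follicle is poorly vascularised before ovulation, and vessels invade it as the corpus luteum forms. PMSG acts like FSH on follicle growth, and hCG acts like the LH surge that triggers ovulation.

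Libraries held between 12.7 and 43.3 M assigned read pairs (1 M is 1e6), both extremes being kidney PT-2385 libraries (replicates 2 and 3). The organ labels held in CPM without TMM scaling: Foxl2, a granulosa cell transcription factor, had 0 counts in the 8 kidney libraries and 69.8 to 110 CPM in ovary. Kap, a proximal tubule protein, was at 11310 to 13995 CPM in kidney. In ovary Kap was at 0.806 CPM or less, except in ovary vehicle replicate 1 (33.9 CPM, 0.265% of the kidney vehicle mean). Ovary vehicle replicate 3 stood apart in nuclear noncoding RNAs, with a list median 0.83 log2 units under the mean of its group, against 0.18 to 0.24 over it in the other vehicle ovaries. Its file carries the number 5, and the file of kidney PT-2385 replicate 3 names another flow cell; values without each library are given where they change a result. RNA was isolated by column from ovary and with Trizol from kidney, so responses were compared between organs, and levels were not tested.

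The responses of both organs were weakly correlated over genes, and genes with an unadjusted p under 0.05 in both mostly had the same sign. Across the 13360 genes the log2 changes correlated with a Pearson and a Spearman coefficient of 0.154 each, a description over genes that share libraries and are not independent replicates, and 55.22% had the same sign. Of 566 genes with an unadjusted p under 0.05 in both organs, 303 were lower in both, 141 higher in both and 122 opposite in sign, so 78.45% had the same sign. Tested gene by gene in 1 fit of all 16 libraries (edgeR quasi-likelihood test, Benjamini-Hochberg adjustment over all 19977 genes, called under 0.05), the ovary response was called for 364 genes (1.82%), with 120 higher (0.601%) and 244 lower (1.22%). The kidney response was called for 307 genes (1.54%), 59 higher (0.295%) and 248 lower (1.24%). The average of both responses was called for 594 genes (2.97%), 150 higher (0.751%) and 444 lower (2.22%). With TMM scaling within each organ the average response gave 176 higher and 313 lower. The interaction was called for 32 genes (0.16%), 27 of them higher in ovary than in kidney (0.135%) and 5 lower (0.025%), and 2363 genes had an unadjusted p under 0.05. With upper-quartile scaling the interaction gave 11 higher and 5 lower, with no filter 32 and 18, and with only the genes of both organs tested 36 and 26. With same-numbered ovary and kidney libraries of each treatment fitted as blocks it gave 9 higher and 8 lower, and kept 11 of the 32 calls.

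**Figure D1:**
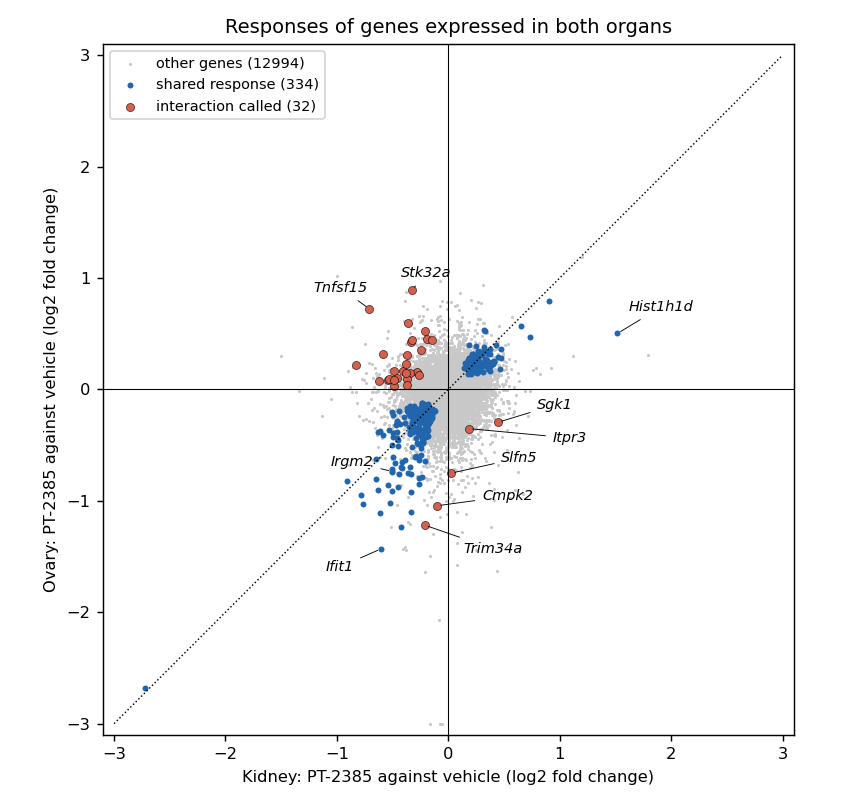
Log2 fold change with PT-2385 in kidney (x axis) against that in ovary (y axis) for each of the 13360 genes expressed in both organs; the dotted line marks equal responses, and 3 genes beyond 3 on either axis are drawn at the edge. The 334 genes with a shared response (blue) lie in the lower left and upper right, and the 32 genes called in the interaction (red) lie mostly in the upper left, 27 of them with a positive value in ovary and a negative value in kidney. Both sets were selected by these same responses, so their places were likely in advance.

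The organ-specific counts depended on the shared estimate of spread and on single libraries. Fitted alone, ovary gave 9 calls and kidney 1032. Ovary calls numbered 2396 without ovary vehicle replicate 3, and 192, 169, 119 and 70 without ovary vehicle replicates 1 and 2 and ovary PT-2385 replicates 1 and 3. They were 241, 230, 229 and 239 without kidney vehicle replicates 2 and 4 and kidney PT-2385 replicates 2 and 3. Kidney calls numbered 108, 27, 71, 29 and 41 without kidney vehicle replicates 1 and 2 and kidney PT-2385 replicates 1, 3 and 4, and 553, 648 and 167 without ovary vehicle replicates 2 and 3 and ovary PT-2385 replicate 3. Average calls numbered 1796 without ovary vehicle replicate 3, 265 and 141 without ovary PT-2385 replicates 1 and 3, 366 and 226 without kidney vehicle replicates 1 and 2, and 256, 260 and 274 without kidney PT-2385 replicates 1, 3 and 4.

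All 32 genes of the interaction were expressed in both organs. By sign, 27 were higher in ovary and lower in kidney, 3 lower in ovary and higher in kidney, and 2 lower in both. The kidney response on its own was called for 22 of them, 21 lower, and the ovary response for 12, 8 higher and 4 lower, with 2 called in both. PT-2385 and vehicle libraries did not overlap in ovary for 17 of the 32 (6.49% of all tested genes) and in kidney for 25 (12.3% of all tested genes). The 32 genes were selected by the p of the difference between organs in these same libraries, so opposite signs and separated groups were likely in advance. Sizes were modest, from 0.40 to 1.44 log2 units with a median of 0.64. The numbers of calls left by leaving out 1 library are given after the genes.

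Stk32a, a serine/threonine kinase of the YANK family (chromosome 18, 43340648 to 43451747, GRCm39), had the smallest p. In ovary Stk32a measured 2.53, 2.55, 2.89 and 2.64 CPM with vehicle (replicates 1 to 4), against 6.02, 5.05, 5.12 and 3.88 CPM with PT-2385. In kidney it measured 8.73, 9.003, 8.87 and 7.73 CPM with vehicle, against 6.905, 7.65, 7.04 and 6.04 CPM with PT-2385. Both organs separated PT-2385 from vehicle without overlap, upward in ovary and downward in kidney. In ovary it rose 1.86-fold (log2 0.89, adjusted p = 0.00163), and in kidney its log2 change was −0.32 (adjusted p = 0.1596). The difference between the organs was 1.22 log2 units (95% interval 0.85 to 1.58, adjusted p = 0.00916, edgeR).

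Por encodes cytochrome P450 oxidoreductase, which supplies electrons to the microsomal P450 enzymes of steroid and drug metabolism (chromosome 5, 135717890 to 135764180). In ovary Por measured 163, 153, 181 and 184 CPM with vehicle, against 196, 185, 213 and 202 CPM with PT-2385. Kidney values were 354, 346, 295 and 317 CPM with vehicle, against 256, 246, 260 and 248 CPM with PT-2385. The ovary groups parted by a narrow margin, and all kidney PT-2385 libraries lay under all kidney vehicle libraries. Por fell in kidney to 0.7701 of vehicle (adjusted p = 0.0125), its ovary change was 0.22 (adjusted p = 0.105) and the interaction was 0.60 (adjusted p = 0.0295, edgeR). Gramd1b, a carrier of cholesterol from the plasma membrane to the endoplasmic reticulum (chromosome 9, 40204529 to 40442679), had the same signs. In ovary Gramd1b measured 508, 461, 541 and 560 CPM with vehicle, against 644, 624, 732 and 573 CPM with PT-2385. Its kidney values were 380, 385, 338 and 327 CPM with vehicle, against 265, 280, 309 and 253 CPM with PT-2385. No library of 1 treatment crossed into the other in either organ. It fell in kidney (log2 −0.37, adjusted p = 0.0323), was at 0.31 in ovary (adjusted p = 0.0592) and had an interaction of 0.68 (adjusted p = 0.0323, edgeR).

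Of the cholesterol list, 20 members were expressed in both organs. The interaction was called higher in ovary than in kidney for 1 (0.135% of all tested genes) and lower for 0. Over the alternatives 0 to 3 were called higher. Dhcr7, a reductase of the synthesis route, was at 0.21 in ovary and −0.18 in kidney (interaction adjusted p = 0.0892, edgeR). Cyp51, lanosterol demethylase, fell in kidney (log2 −0.59, adjusted p = 0.00266) and was at −0.14 in ovary (interaction adjusted p = 0.133, edgeR).

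Slc11a2 encodes DMT1, the importer of ferrous iron and a known HIF-2 target of the gut (chromosome 15, 100285779 to 100320936). In ovary Slc11a2 measured 42.7, 41.6, 40.7 and 46.2 CPM with vehicle, against 50.1, 46.5, 47.6 and 47.2 CPM with PT-2385. The kidney libraries gave 103, 109, 99.01 and 97.6 CPM with vehicle, against 77.01, 87.2, 86.6 and 85.3 CPM with PT-2385. In ovary the lowest PT-2385 library lay just over the highest vehicle library, and in kidney the PT-2385 libraries lay clearly under the vehicle libraries. Slc11a2 fell in kidney to 0.822 of vehicle (adjusted p = 0.0209), its ovary change was 0.16 (adjusted p = 0.174), and the interaction was 0.44 (95% interval 0.27 to 0.62, adjusted p = 0.0372, edgeR). It was the single called member of the list of targets preferred by HIF-2 (22 members in both organs) and of the iron list (20 members in both organs). Of all tested genes, 0.135% were called higher in the interaction. For the HIF-2 list DESeq2 and the fit with the replicate block each called 1 member higher and 1 lower, and the fit without ovary vehicle replicate 3 called 1 higher and 3 lower. No member was called higher without ovary vehicle 1, ovary PT-2385 1 to 3, kidney vehicle 1 to 3 or kidney PT-2385 1, 3 or 4, or with upper-quartile scaling, no filter or the surrogate variable. Slc11a1, the phagosomal metal transporter of macrophages, rose in ovary (log2 0.66, adjusted p = 0.00156) and was at −0.07 in kidney, where its level was under 2.4 CPM, and missed the interaction (adjusted p = 0.149, edgeR). Aco1, a cytosolic aconitase that also regulates iron transcripts, fell in kidney (log2 −0.25, adjusted p = 0.0268) and was at 0.01 in ovary (interaction adjusted p = 0.204, edgeR).

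Other genes on the same side were carried mainly by the kidney. Arid5b, a DNA-binding regulator of transcription, fell in kidney from 70.4 ± 5.37 to 53.2 ± 0.728 CPM (mean ± SD, n = 4; log2 −0.41, adjusted p = 0.00616) and was at 0.16 in ovary (interaction adjusted p = 0.0295, edgeR). Ipmk, an inositol phosphate kinase, had 103, 115, 106 and 105 CPM in vehicle kidneys and 74.98, 82.9, 79.1 and 70.2 CPM in PT-2385 kidneys. Its ovary change was 0.03, and its kidney fall was to 0.715 of vehicle (adjusted p = 0.00132, interaction 0.51, adjusted p = 0.0372, edgeR). Arhgap11a, a GTPase-activating protein of dividing cells, fell in kidney to 0.687 of vehicle against 1.06 in ovary. Pdxk, pyridoxal kinase, fell to 0.692 in kidney against 1.07 in ovary, with 41.06% of its exon bases shared with other gene models, so its reads cannot be separated from theirs.

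Ovary carried the difference for a smaller set. Fam189a2, an endosomal membrane protein, measured 22.01, 22.6, 26.9 and 27.97 CPM in vehicle ovaries and 35.9, 33.8, 38.9 and 34.8 CPM in PT-2385 ovaries. These groups did not overlap, the ovary rise was 1.44-fold (adjusted p = 0.00228) and the kidney change −0.21 (interaction 0.74, adjusted p = 0.0302, edgeR). Reep6, a protein that shapes the endoplasmic reticulum, rose 1.37-fold in ovary, from 4.43 ± 0.353 to 6.09 ± 0.302 CPM (n = 4), with −0.19 in kidney.

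Among the 27 genes higher in ovary than in kidney, 17 were not described above, and most were outside the rule for named genes, so those named next were chosen after their values were seen. Tnfsf15, the cytokine TL1A that restrains endothelial growth, had the largest interaction (1.44), with 0.72 in ovary and −0.71 in kidney at levels of 0.989 to 6.92 CPM. Gpc4, a glypican of the cell surface, rose in ovary (log2 0.45) and was at −0.32 in kidney. Acot7, an acyl-CoA thioesterase, fell in kidney (log2 −0.62) against 0.08 in ovary.

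**Figure D2:**
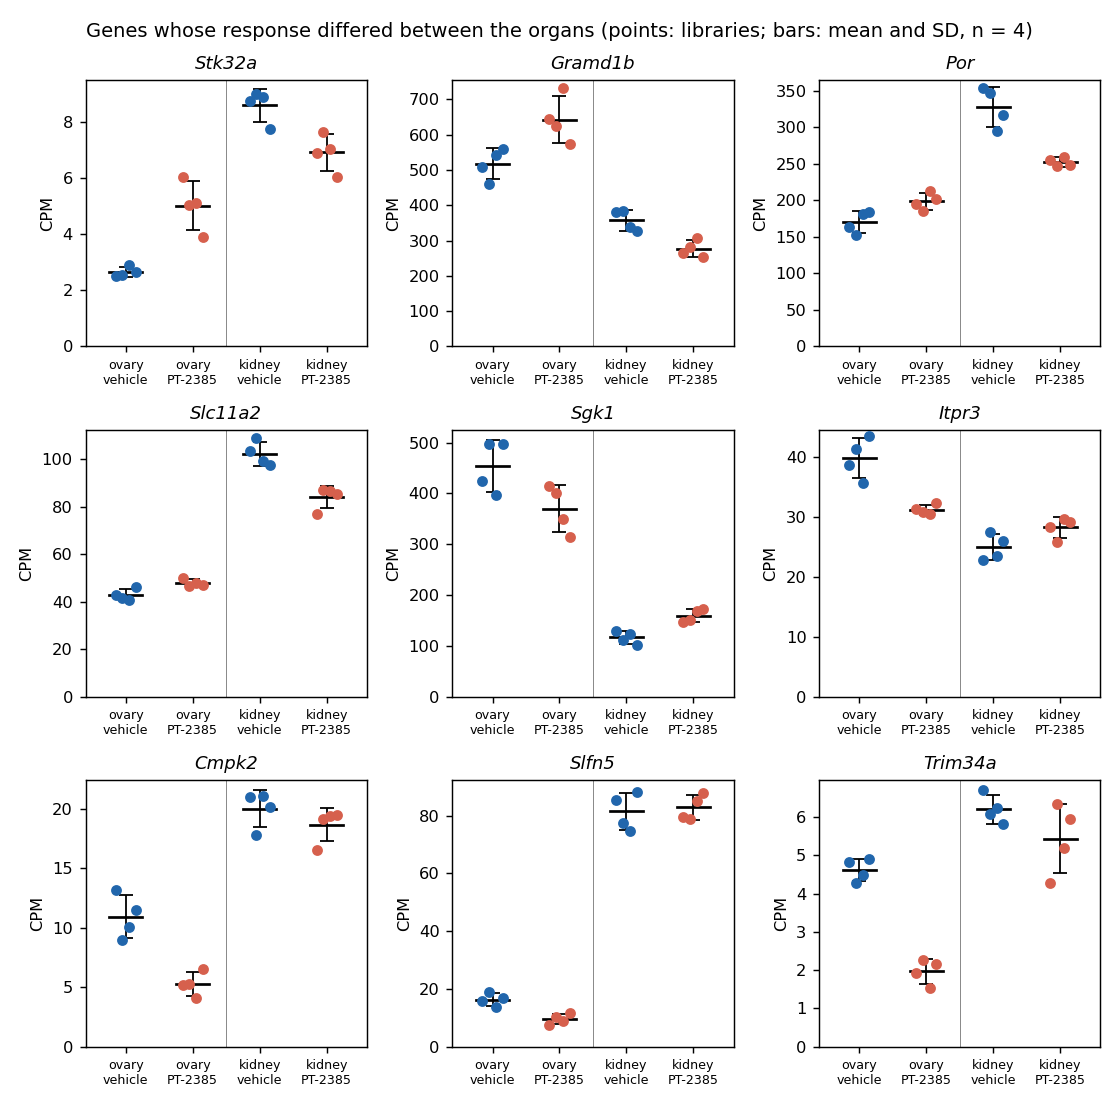
CPM of 9 genes called in the interaction (y axis, from 0, own scale per panel) in the 4 groups (x axis); each point is 1 library, and bars give the mean and SD of 4 libraries. Stk32a, Gramd1b, Por and Slc11a2 lie higher with PT-2385 in ovary and lower with PT-2385 in kidney, Sgk1 and Itpr3 the other way, and Cmpk2, Slfn5 and Trim34a are apart in ovary and overlap in kidney.

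Sgk1 and Itpr3 went the other way, lower in ovary and higher in kidney. Sgk1 is the kinase induced by corticosteroids that keeps the epithelial sodium channel at the cell surface (chromosome 10, 21758083 to 21875802). In ovary Sgk1 measured 424, 497, 397 and 497 CPM with vehicle, against 415, 401, 349 and 315 CPM with PT-2385. Kidney libraries were at 130, 111, 124 and 102 CPM with vehicle, against 147, 150, 168 and 172 CPM with PT-2385. The kidney groups were apart, and in ovary PT-2385 replicates 1 and 2 lay inside the vehicle range. Sgk1 rose in kidney 1.36-fold (adjusted p = 0.0268), its ovary change was −0.29 (adjusted p = 0.123) and the interaction was −0.74 (95% interval −1.03 to −0.45, adjusted p = 0.0372, edgeR). Itpr3, a calcium release channel of the endoplasmic reticulum (chromosome 17, 27276278 to 27341197), measured 38.8, 41.4, 35.7 and 43.5 CPM in vehicle ovaries and 31.3, 30.8, 30.5 and 32.3 CPM in PT-2385 ovaries. The ovary libraries were apart by treatment, and those of kidney overlapped at 22.8 to 27.4 CPM with vehicle and 25.8 to 29.7 CPM with PT-2385. Itpr3 fell in ovary to 0.783 of vehicle (adjusted p = 0.0159), with 0.19 in kidney and an interaction of −0.54 (adjusted p = 0.0391, edgeR).

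Requiring an unadjusted p under 0.05 in each organ beside the called interaction left 17 genes with opposite responses, 15 higher in ovary and lower in kidney, and Sgk1 and Itpr3 in reverse. Of the other members of the glucocorticoid list, Per2, a clock gene that is also induced by glucocorticoids, rose in kidney (log2 0.58, adjusted p = 0.0232) and was at −0.19 in ovary, and its interaction missed the threshold (adjusted p = 0.0757, edgeR).

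Cmpk2, Slfn5 and Trim34a fell in ovary and were not called in kidney. Cmpk2, a mitochondrial nucleotide kinase induced by interferon (chromosome 12, 26519203 to 26529836), is the one member of the interferon list among them. In ovary Cmpk2 measured 13.2, 8.99, 10.1 and 11.5 CPM with vehicle, against 5.198, 5.23, 4.06 and 6.51 CPM with PT-2385. In kidney the values were 21.01, 17.8, 21.1 and 20.1 CPM with vehicle, against 16.6, 19.2, 19.4 and 19.5 CPM with PT-2385. PT-2385 ovaries lay under all vehicle ovaries, and the kidney groups overlapped. Cmpk2 fell in ovary to 0.485 of vehicle (adjusted p = 0.000624) against 0.934 in kidney (adjusted p = 0.741), an interaction of −0.95 (adjusted p = 0.0372, edgeR). Slfn5, a Schlafen protein induced by interferon (chromosome 11, 82842928 to 82855666), had 15.8, 18.9, 13.7 and 16.8 CPM in vehicle ovaries and 7.496, 10.2, 8.77 and 11.8 CPM in PT-2385 ovaries. It fell in ovary to 0.594 of vehicle and stood at 1.02 of vehicle in kidney (interaction −0.78, adjusted p = 0.0391, edgeR). Trim34a, a tripartite motif protein with 23.5% of its exon bases shared with other gene models, fell in ovary to 0.4297 of vehicle against 0.864 in kidney (interaction −1.01, adjusted p = 0.0372, edgeR).

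Which genes were called depended strongly on single libraries. Each of the 32 genes kept the sign of its interaction in all 31 alternatives tried. They were selected by a small interaction p in these same libraries, so a kept sign was likely in advance. Stk32a was called in 30 of the 31 and in 15 of the 16 fits that left out 1 library, and missed the threshold without ovary PT-2385 replicate 3 (adjusted p = 0.0701, edgeR), where 0 genes were called and 1835 had an unadjusted p under 0.05. Leaving out 13 of the 16 libraries moved the number of calls by more than 1.5 times. It was 758 without ovary vehicle replicate 3, which kept all 32 genes. It was 2, 21, 3 and 4 without ovary vehicle replicates 1 and 4 and ovary PT-2385 replicates 1 and 2. It was 18, 2, 9 and 18 without kidney vehicle replicates 1 to 4, and 5, 2 and 2 without kidney PT-2385 replicates 1, 3 and 4. Arid5b, Por, Fam189a2, Arhgap11a and Pdxk kept their calls in 9, 9, 8, 8 and 8 of those 16 fits, Gramd1b, Ipmk and Reep6 in 7 each, Slc11a2 and Trim34a in 6 each, Sgk1, Cmpk2, Slfn5, Gpc4 and Tnfsf15 in 5 each, Itpr3 in 4 and Acot7 in 2. The 17 opposite genes numbered 262 without ovary vehicle replicate 3, 0 without ovary PT-2385 replicate 3 and between 2 and 10 without each of the other 10 libraries that moved the count by more than 1.5 times (ovary vehicle 1, ovary PT-2385 1 and 2, kidney vehicle 1 to 4, and kidney PT-2385 1, 3 and 4).

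The shared responses were more numerous. Genes were counted as shared when expressed in both organs, called in the average response, not called in the interaction, and of the same sign with an unadjusted p under 0.05 in each organ. There were 334, of which 241 were lower (median log2 −0.27 in ovary and −0.24 in kidney) and 93 higher (0.24 and 0.26). The count was 657 without ovary vehicle replicate 3, 167 and 97 without ovary PT-2385 replicates 1 and 3, 211 and 153 without kidney vehicle replicates 1 and 2, and 160, 160 and 173 without kidney PT-2385 replicates 1, 3 and 4. The 16 genes named by the smallest p of the average response, 8 in each direction, kept their average call in each of the 30 alternatives run for them. They were selected by a small average p in these same libraries, so kept calls were likely in advance. A missed interaction does not show that the organs responded alike, so the interval of the difference is given for the shared genes described with the value of every library, and the other shared genes are given as values only.

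Eif2ak2, the kinase PKR that halts translation when it senses double-stranded RNA (chromosome 17, 79159993 to 79190002), led the shared lower genes. In ovary Eif2ak2 measured 47.2, 40.95, 49.9 and 52.6 CPM with vehicle, against 25.4, 27.9, 24.6 and 31.6 CPM with PT-2385. Kidney levels were 35.6, 26.2, 30.3 and 30.6 CPM with vehicle, against 24.8, 27.4, 24.02 and 26.5 CPM with PT-2385. In ovary the groups were apart, and in kidney all but 1 of the PT-2385 libraries lay under 27 CPM with vehicle replicate 2 among them. The average response was −0.53 log2 units (adjusted p = 0.00203), with −0.80 in ovary and −0.26 in kidney, and a difference of −0.53 (95% interval −0.82 to −0.25, interaction adjusted p = 0.115, edgeR).

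Irgm2, an immunity-related GTPase that acts on vacuoles holding pathogens (chromosome 11, 58090444 to 58113608), was lower in both organs. In ovary Irgm2 measured 25.3, 19.7, 28.3 and 29.6 CPM with vehicle, against 12.4, 14.3, 15.05 and 19.5 CPM with PT-2385. In kidney it gave 29.4, 23.2, 25.9 and 25.95 CPM with vehicle, against 17.3, 19.1, 18.4 and 19.04 CPM with PT-2385. No PT-2385 library overlapped with vehicle in either organ. Its average response was −0.62 (adjusted p = 0.00243, edgeR), and the difference between organs was −0.23 (95% interval −0.61 to 0.14). Gbp9, a guanylate-binding protein induced by interferon, and Parp14, an ADP-ribosyltransferase, had log2 changes of −0.76 and −0.85 in ovary and of −0.34 and −0.26 in kidney. Trim12c, a tripartite motif protein, had −0.60 and −0.30 (average adjusted p = 0.00243, edgeR).

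Other shared lower genes were not in the interferon list. Snx29, a sorting nexin (chromosome 16, 11140772 to 11573336), measured 6.13, 5.43, 5.16 and 4.84 CPM in vehicle ovaries and 3.83, 4.52, 3.42 and 4.06 CPM in PT-2385 ovaries. Its kidney values were 79.5, 77.8, 72.9 and 68.02 CPM with vehicle, against 52.5, 58.6, 55.3 and 50.9 CPM with PT-2385, and neither organ had an overlap. The average response was −0.45 (adjusted p = 0.00243, edgeR), and the difference between organs was 0.02 (95% interval −0.25 to 0.29). Dixdc1, a scaffold of Wnt signalling, had −0.61 and −0.26, and Tln2, the integrin-linking talin 2, had −0.43 and −0.20 in ovary and kidney. Tiparp, an ADP-ribosyltransferase that is a standard target of the aryl hydrocarbon receptor, fell when each organ was tested (log2 −0.22 in ovary, adjusted p = 0.0436; −0.29 in kidney, adjusted p = 0.01497, edgeR). Tiparp was named after its values were seen. In all, 11 genes expressed in both organs were called in ovary and in kidney, 9 of them in the same direction and 7 lower in both.

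**Figure D3:**
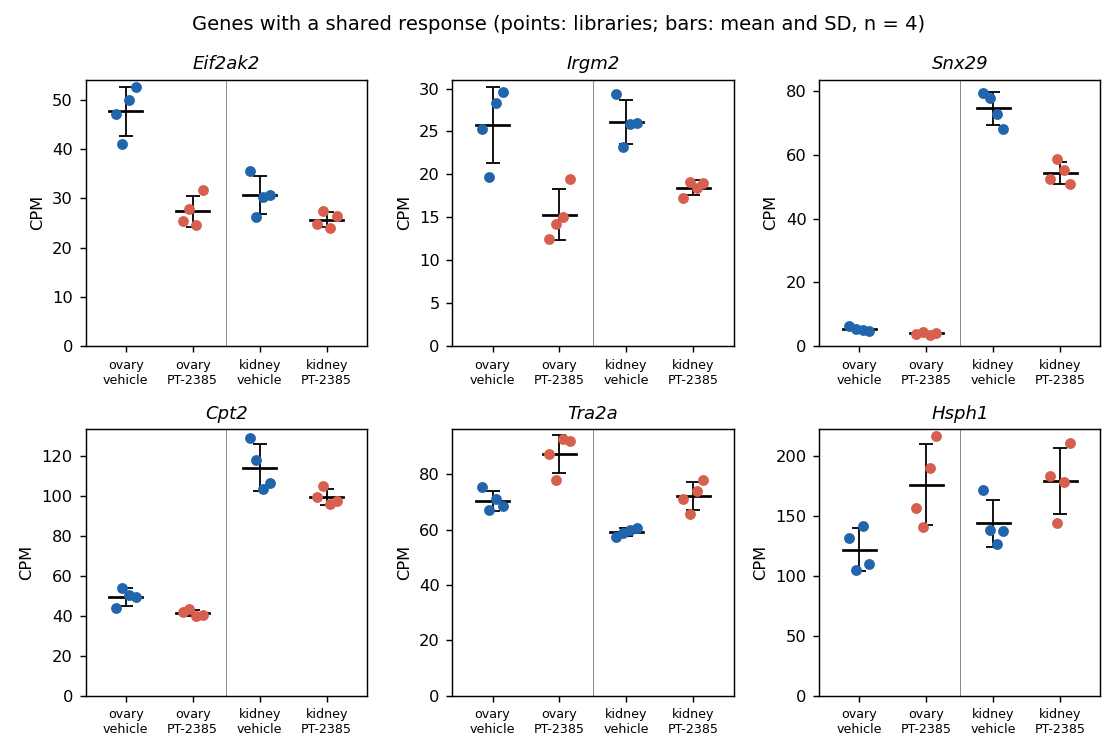
CPM of 6 genes with a shared response (y axis, from 0, own scale per panel) in the 4 groups (x axis); points are libraries, and bars give the mean and SD of 4 libraries. Eif2ak2, Irgm2, Snx29 and Cpt2 lie lower with PT-2385 in both organs, and Tra2a and Hsph1 lie higher in both.

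Of the 44 gene lists, the interferon list held the most shared genes, 12. Interferon-stimulated genes are switched on by type I interferon, and many encode sensors or blockers of viral RNA. Of the 40 members 36 were expressed in both organs. Among these, 33 had lower values with PT-2385 in both organs and 0 higher values in both. Of all such genes, 55.22% had the same sign in either direction, and the share lower in both was not counted. The list's median log2 change was −0.80 in ovary and −0.26 in kidney, against 0.0038 and −0.0099 over all genes expressed in both organs. Over all 40 members the average response was called lower for 30, against 2.22% of all tested genes, and higher for 0. The ovary response was called lower for 28 and the kidney response for 0, against 1.22% and 1.24% of all tested genes. Even so, 12 members met the shared rule with an unadjusted p under 0.05 in kidney too. The contrast of 28 and 0 calls depends on the spread estimated over both organs. Fitted alone, over all genes, ovary gave 9 calls (8 lower) and kidney 1032 (677 lower). The list was chosen with its fall in these ovaries known, so its direction there is not independent evidence.

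Most members had a more negative value in ovary, with few differences called. The change was more negative in ovary than in kidney for 34 of 36. The interaction was called for 1 (Cmpk2), against 0.025% of all tested genes called lower. It was called for 9 by DESeq2 and for 8 without ovary vehicle replicate 3. Ifit1, an antiviral protein that binds RNA, had log2 changes of −1.43 and −0.60. Usp18, the protease that removes ISG15, had −1.45 and −0.38. Irf7, the factor that amplifies interferon production, had −1.03 and −0.76, the second largest kidney change of the list after Mx2, a dynamin-like antiviral GTPase (−0.79, with −0.95 in ovary). Rsad2, the antiviral enzyme viperin, missed the interaction by a small margin (−1.50 and −0.17, adjusted p = 0.0589), as did Ifit3 (−1.64 and −0.21, adjusted p = 0.0769, edgeR). Ifit3 has a near-identical copy in Ifit3b, so its reads may be split between them. The 3 members without a shared lower sign were Ifi27 and Ifi35, positive in kidney (0.14 and 0.16), and Isg20, slightly positive in ovary (0.03).

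**Figure D4:**
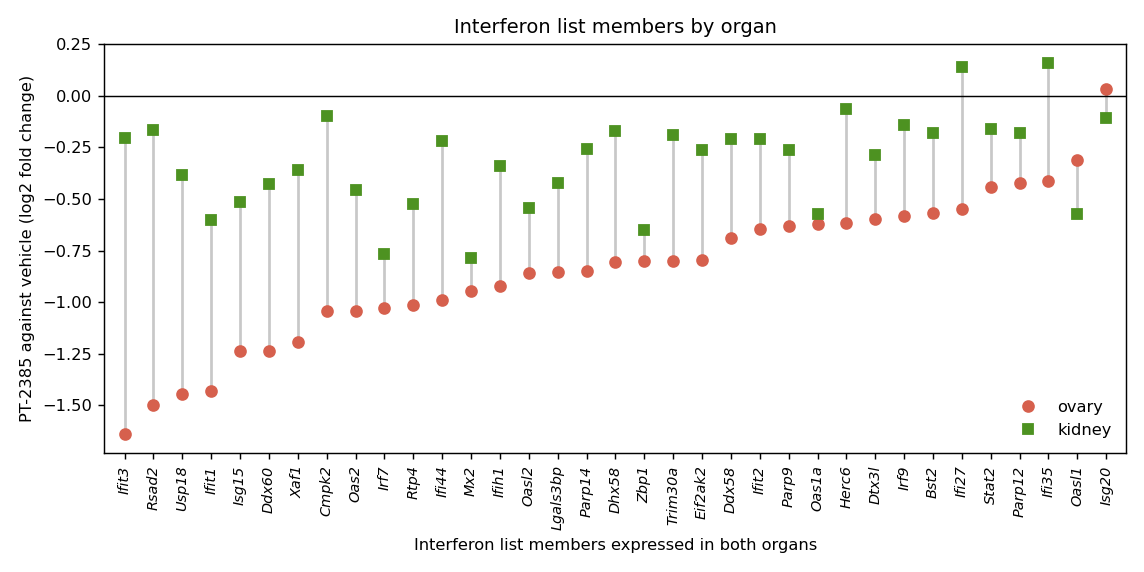
Log2 fold change with PT-2385 (y axis) of 35 of the 36 interferon list members expressed in both organs (x axis, ordered by the ovary change); circles give ovary and squares kidney, joined by a line. Both marks lie under 0 for 32 members, and the ovary mark lies lower for 33.

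Per library, the median over these 36 genes of the log2 CPM difference from the organ's mean with vehicle was 0.10, −0.33, 0.064 and 0.20 in vehicle ovaries (replicates 1 to 4) and −0.87, −0.91, −1.10 and −0.44 in PT-2385 ovaries. Vehicle kidneys gave 0.043, −0.22, 0.015 and 0.23, and PT-2385 kidneys −0.38, −0.24, −0.29 and −0.16. The groups were apart in ovary and overlapped in kidney, where vehicle replicate 2 was as low as PT-2385 libraries. Macrophage markers were measured beside them: 11 of 16 members expressed in both organs were lower in both, with 0 called in any comparison. DESeq2 called 0 in the interaction. Of all 20 tested members, 2 had an unadjusted interaction p under 0.05 and 4 an unadjusted average p under 0.05. Over all 19977 tested genes these unadjusted counts were 2363 and 3595. The macrophage medians were −0.14 in ovary (−0.059 without ovary vehicle replicate 2, where 8 were lower in both) and −0.21 in kidney (−0.057 without kidney vehicle replicate 4). Their summed level ran from 198 to 275 CPM in vehicle and 176 to 226 CPM in PT-2385 ovaries, and from 179 to 201 and 160 to 188 CPM in kidney, and their part in the interferon result was not tested. In bulk tissue, fewer cells of a type and less RNA per cell cannot be told apart. Over the alternatives the count of members lower in both organs ran from 33 to 35 and that of average calls from 16 (with 1 surrogate variable) to 36; without ovary PT-2385 replicate 3 it was 17, and without ovary vehicle replicate 3 it was 31.

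Promoters are shown for 3 genes of these groups because they carry the letters of the interferon-stimulated response element, through which interferon acts on its target genes: Slfn5, whose fall differed between organs, and Irgm2 and Trim12c, whose fall was shared. Each is the 250 bases before the annotated start (RefSeq table, GRCm38.p6), 5′ to 3′ on the gene's strand, with the match in capitals; the motif searched, on either strand, was GAAA, any 2 bases, then GAAA. They lie at chr11:82951852-82952101 (+), chr11:58214727-58214976 (+) and chr7:104353350-104353599 (−). The matches end 146, 55 and 20 bases before the start given in that table. For Slfn5 a GENCODE transcript began with the bases at that start, and for Irgm2 and Trim12c none did.
Slfn5: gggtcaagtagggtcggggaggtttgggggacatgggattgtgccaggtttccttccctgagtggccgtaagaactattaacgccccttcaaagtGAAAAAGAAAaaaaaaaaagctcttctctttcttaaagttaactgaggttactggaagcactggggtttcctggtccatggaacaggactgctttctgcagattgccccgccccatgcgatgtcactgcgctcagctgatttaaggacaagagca
Irgm2: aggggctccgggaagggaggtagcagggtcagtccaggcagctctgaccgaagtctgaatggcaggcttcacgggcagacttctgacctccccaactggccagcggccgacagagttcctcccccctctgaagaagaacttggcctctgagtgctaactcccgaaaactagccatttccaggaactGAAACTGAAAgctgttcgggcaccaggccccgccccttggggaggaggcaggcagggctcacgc
Trim12c: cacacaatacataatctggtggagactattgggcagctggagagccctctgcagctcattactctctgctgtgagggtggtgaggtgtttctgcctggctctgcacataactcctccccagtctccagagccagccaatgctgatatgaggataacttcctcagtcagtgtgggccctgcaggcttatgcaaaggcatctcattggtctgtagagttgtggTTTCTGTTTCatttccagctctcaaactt
The same search found the motif in 9 of 26 interferon list members with a promoter entry (34.6%) and in 17 of 186 shared lower genes (9.14%). It was in 1 of 75 shared higher genes (1.33%), in 2 of 22 interaction genes (9.09%, Slfn5 and 1 of the annotated starts of Sgk1), and in 320 of 10060 genes expressed in both organs (3.18%). Over the whole table it was in 2.98% of 32851 promoters. Of the 17 shared lower genes with the motif, 2 were in the interferon list. The core of the hypoxia response element, ACGTG or GCGTG on either strand, was in 14 of the 22 interaction genes (63.6%), 115 of 186 shared lower genes (61.8%) and 42 of 75 shared higher genes (56.0%), against 61.6% of genes expressed in both organs. ACGTG alone was in 16.6% and GCGTG alone in 28.2% of the promoters of the table. A match describes letters, not binding.

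PPAR and fatty acid oxidation genes followed the interferon list in the number of members with lower values in both organs. PPARα drives the enzymes that burn fatty acids, and both organs carry them. Of 21 members expressed in both organs, 17 were lower in both and 1 higher in both. Of all such genes, 55.22% had the same sign in either direction. The list medians were −0.13 in ovary, or −0.071 without ovary vehicle replicate 3, and −0.17 in kidney. Proximal tubule markers were measured beside the PPAR members: 12 of 14 expressed in both organs were lower in both (medians −0.38 in ovary and −0.11 in kidney). Over all 26 the kidney value was negative for 24, with a median of −0.17 and 2 called lower, against 1.24% of all tested genes. The vehicle ovaries included replicate 1, which held the kidney trace (Kap, above), and its part was not tested. Over the alternatives, 3 to 13 of these markers were lower in both, and their ovary median ran from −0.54 to 0.11. Their summed level ran from 404 to 633 CPM in vehicle and 292 to 399 CPM in PT-2385 ovaries. In kidney it ran from 59784 to 67519 CPM with vehicle and 59787 to 61849 CPM with PT-2385, and their part in the PPAR result was not tested. The average response was called lower for 6 PPAR members, against 2.22% of all tested genes, among them Acadm, Cpt1a, Cpt2, Ehhadh and Vnn1. It was called higher for 0, and the interaction was called for 0. Cpt2, which completes the import of fatty acids into mitochondria (chromosome 4, 107761178 to 107780807), measured 43.6, 54.03, 50.6 and 49.3 CPM in vehicle ovaries and 41.7, 43.1, 40.1 and 40.3 CPM in PT-2385 ovaries. Its kidney values were 129, 118, 103 and 106 CPM with vehicle, against 99.6, 105, 95.7 and 97.5 CPM with PT-2385, apart in ovary and overlapping in kidney through PT-2385 replicate 2. The average response was −0.23 (adjusted p = 0.0198, edgeR), and the difference between organs −0.06 (95% interval −0.27 to 0.16). Ehhadh, a peroxisomal oxidation enzyme, had −0.63 in ovary at 2.35 to 4.48 CPM and −0.65 in kidney at 348 to 884 CPM. Proximal tubule RNA was traced in ovary vehicle replicate 1 (Kap, above), where Ehhadh was at 4.48 CPM against 3.63 to 4.26 CPM in the other vehicle ovaries. The 6 average calls became 3 without ovary vehicle replicate 2, 0 without ovary PT-2385 replicate 3, 3 without kidney vehicle replicate 2 and 2 without kidney PT-2385 replicate 3. These genes were named after their values were seen.

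MHC class I genes, which present peptides to T cells and are themselves induced by interferon, had medians of −0.15 in ovary and −0.018 in kidney. Of 16 members expressed in both organs 9 were lower in both and 0 higher in both. Of all such genes, 55.22% had the same sign in either direction, so this count was near the share over all genes. Without kidney vehicle replicates 3 and 4 the kidney median was 0.005 and 0.0063, with 7 lower in both each time. The average response was called lower for 4 members, against 2.22% of all tested genes. Nlrc5, the transactivator of the class, had −0.70 and −0.35, and H2-T22, a non-classical heavy chain, had −0.22 and −0.36 (kidney adjusted p = 0.0168, edgeR). The 4 average calls became 2 without ovary PT-2385 replicate 3, kidney PT-2385 replicate 1 or kidney PT-2385 replicate 3.

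The shared higher genes were fewer. Tra2a, a splicing regulator (chromosome 6, 49220858 to 49240964), had the smallest average p among them. In ovary Tra2a measured 75.2, 66.98, 70.98 and 68.4 CPM with vehicle, against 87.3, 77.8, 92.8 and 91.8 CPM with PT-2385. The kidney values were 57.3, 58.9, 59.9 and 60.7 CPM with vehicle, against 71.1, 65.6, 74.1 and 77.8 CPM with PT-2385. No library overlapped between treatments in either organ. Its rise was called in ovary (1.24-fold, adjusted p = 0.0172) and in kidney (1.22-fold, adjusted p = 0.0304), with a difference of 0.02 (95% interval −0.17 to 0.22, edgeR). Ppan, a factor of large ribosomal subunit assembly, rose in both as well (1.21-fold, adjusted p = 0.0462, and 1.26-fold, adjusted p = 0.0268, edgeR). Noct, a rhythmic enzyme that acts on nicotinamide cofactors, and Tnfrsf12a, the TWEAK receptor of repairing tissue, had log2 changes of 0.18 and 0.29 in ovary and 0.47 and 0.45 in kidney. Dmtf1, a cyclin D-binding transcription factor, had 0.18 and 0.23. Ppp1r13b, a p53-binding protein, had 0.40 and 0.19.

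Hist1h1d, a linker histone gene, had the largest kidney change of the named shared genes. In ovary Hist1h1d measured 1.59, 1.47, 1.96 and 1.82 CPM with vehicle, against 3.01, 2.33, 2.33 and 2.22 CPM with PT-2385. Its kidney libraries were at 0.947, 1.05, 0.944 and 1.18 CPM with vehicle, against 2.85, 1.23, 2.697 and 4.47 CPM with PT-2385. All PT-2385 libraries lay over all vehicle libraries in both organs, with a wide spread among PT-2385 kidneys. Its log2 change was 0.50 in ovary and 1.52 in kidney (difference −1.02, 95% interval −1.73 to −0.30, interaction adjusted p = 0.247, edgeR). Its levels were under 5 CPM, and replication-dependent histone transcripts lack a polyA tail, and these are polyA libraries.

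Heat shock genes, chaperones that refold proteins, leaned higher in both organs. Of 21 members expressed in both, 15 were higher in both and 0 lower in both (medians 0.14 and 0.11). Of all such genes, 55.22% had the same sign in either direction. The average response was called higher for 3 members, against 0.751% of all tested genes. They were Hsph1, Chordc1 and Dnajb1. Hsph1, a partner of HSP70, measured 131, 104, 142 and 109 CPM in vehicle ovaries and 157, 140, 190 and 216 CPM in PT-2385 ovaries. Its kidney values were 172, 138, 126 and 137 CPM with vehicle, against 183, 144, 178 and 210 CPM with PT-2385, and the groups overlapped in each organ. The average response was 0.43 (adjusted p = 0.0404, edgeR), and the difference between organs 0.21 (95% interval −0.23 to 0.65). These 3 calls became 10 without ovary vehicle replicate 3 and 0 without ovary vehicle replicate 2 or 4, ovary PT-2385 replicate 3, kidney vehicle replicate 2 or kidney PT-2385 replicate 3 or 4. They were 1 without ovary PT-2385 replicate 1, kidney vehicle replicate 3 or 4 or kidney PT-2385 replicate 1. In ovary vehicle replicate 3 the list median was 0.21 log2 units over the vehicle mean, near the PT-2385 ovaries (0.041 to 0.25). The medians were 0.086 in ovary without ovary PT-2385 replicate 3 and 0.063 in kidney without kidney PT-2385 replicate 4. Ribosomal protein genes were higher in both organs for 24 of 32 members, with medians of 0.044 and 0.043 (kidney 0.018, 0.029 and 0.082 without kidney vehicle replicates 1 to 3). Of all genes expressed in both organs, 55.22% had the same sign in either direction. The 24 became 17 without ovary vehicle replicate 3 and 16 without ovary PT-2385 replicate 1, and ran from 16 to 28 over the alternatives. Of the ribosomal members 0 were called, and DESeq2 called 0 in the interaction. An unadjusted average p under 0.05 was found for 2, against 3595 of 19977 tested genes.

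Of the unfolded protein stress list, Ddit3, the stress factor CHOP with 20.9% of exon bases shared with other gene models, and Xbp1, the factor of the IRE1 branch, were shared (0.28 and 0.28 in ovary, 0.47 and 0.25 in kidney). Herpud1, a member of the machinery that degrades misfolded proteins, rose in ovary 1.46-fold (adjusted p = 0.00295) and was at −0.04 in kidney, just outside the interaction threshold (adjusted p = 0.0503, edgeR). In ovary Herpud1 measured 40.4, 34.1, 38.2 and 34.5 CPM with vehicle, against 54.2, 42.9, 55.8 and 61.3 CPM with PT-2385. Kidney levels came to 160, 175, 161 and 160 CPM with vehicle, against 158, 151, 156 and 173 CPM with PT-2385. The ovary groups were apart and the kidney groups overlapped. The list's ovary median was 0.17, and 0.094 and 0.10 without ovary vehicle replicate 2 and ovary PT-2385 replicate 4. Its kidney median was −0.023. It changed sign without kidney PT-2385 replicates 1 and 2 (0.030 and 0.016) and was −0.081 without replicate 4. It was −0.0086 without ovary PT-2385 replicate 3, and −0.043, −0.0038 and −0.015 without kidney vehicle replicates 1 to 3. The interaction was called for 0 members, for 4 without ovary vehicle replicate 3 and for 1 without ovary PT-2385 replicate 2.

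Several lists had opposite medians in the organs with few or no single genes called. Cell cycle genes had a median of 0.13 in ovary and −0.17 in kidney, and all 31 members expressed in both organs had a higher value in ovary than in kidney. The interaction was called for 0 of them, against 0.16% of all tested genes. An unadjusted p under 0.05 was found for 7 of the 32 tested members, against 2363 of 19977 tested genes. DESeq2 called 0, and the fit without ovary vehicle replicate 3 called 1. The 7 became 3, 16 and 3 without ovary vehicle replicates 2 to 4 and 2 without ovary PT-2385 replicate 3. They became 4 and 3 without kidney vehicle replicates 1 and 3, and 14, 4 and 2 without kidney PT-2385 replicates 1 to 3. Plk1, the mitotic kinase, had 0.15 and −0.40. Per library the list median was 0.058, −0.31, 0.27 and −0.047 in vehicle ovaries against 0.12, 0.12, 0.16 and 0.20 with PT-2385, and 0.13, −0.34, −0.40 and −0.087 in PT-2385 kidneys against −0.059 to 0.081 with vehicle. The ovary and kidney groups both overlapped. The medians became 0.055 in ovary without ovary vehicle replicate 2, 0.22 without ovary vehicle replicate 3, −0.29 in kidney without kidney PT-2385 replicate 1 and −0.084 without kidney PT-2385 replicate 3.

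Endothelial markers went the other way, with a median of −0.14 in ovary and 0.098 in kidney. A lower value in ovary than in kidney was found for 27 of 28 members expressed in both organs, and for 25 to 28 over the alternatives. None was called in the interaction (13 with an unadjusted p under 0.05, against 2363 of 19977 tested genes). DESeq2 called 3 and the fit without ovary vehicle replicate 3 called 5. The 13 became 8 without ovary vehicle replicate 2 and 6 without kidney PT-2385 replicate 3. Cldn5, the endothelial tight junction claudin, measured 26.6, 34.8, 22.4 and 26.8 CPM in vehicle ovaries and 21.1, 24.1, 17.3 and 24.2 CPM in PT-2385 ovaries. Its kidney values were 13.7, 14.4, 15.01 and 15.01 CPM with vehicle, against 16.9, 16.9, 17.1 and 17.9 CPM with PT-2385. The ovary groups overlapped, and the kidney groups did not. Its interaction was −0.59 (adjusted p = 0.141, edgeR). Tie1, a receptor of the angiopoietin system, had −0.34 and 0.13, and Tek, the angiopoietin receptor itself, had −0.46 and 0.04. Summed endothelial markers ran from 1440 to 1886 CPM in vehicle and 1301 to 1485 CPM in PT-2385 ovaries, and from 1388 to 1508 and 1472 to 1658 CPM in kidney. The ovary median was −0.058 without ovary vehicle replicate 2, and the kidney median was 0.16 without kidney PT-2385 replicate 1. Podocyte markers expressed in both organs were lower in ovary than in kidney for 12 of 13, with a kidney median of 0.20. Of all 14 tested podocyte markers 0 were called in the interaction, and DESeq2 called 0. An unadjusted interaction p under 0.05 was found for 3 of the 14, against 2363 of 19977 tested genes. The 3 became 7 and 5 without ovary vehicle replicates 2 and 3, 6 and 5 without ovary PT-2385 replicates 3 and 4, and 5 without kidney vehicle replicate 4 or kidney PT-2385 replicate 1.

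**Figure D5:**
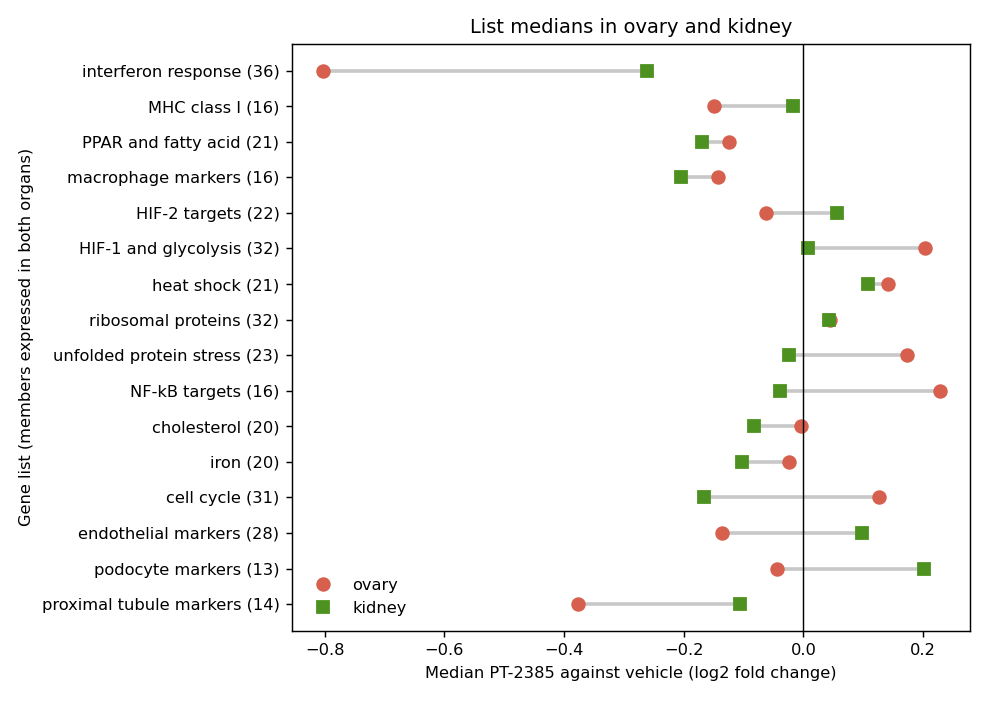
Median log2 fold change with PT-2385 (x axis) of 16 gene lists (y axis, with the number of members expressed in both organs); circles give ovary and squares kidney. The interferon list lies lowest in both organs (−0.80 and −0.26), and the cell cycle and endothelial lists have medians of opposite sign.

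None of Epas1, Hif1a, Arnt and Vegfa was called in the interaction. Epas1, which encodes HIF-2α, measured 154, 140, 178 and 162 CPM in vehicle ovaries and 152, 155, 153 and 155 CPM in PT-2385 ovaries. In kidney Epas1 ran from 200 to 222 CPM with vehicle and 197 to 222 CPM with PT-2385, and its interaction was −0.04 (95% interval −0.24 to 0.15, adjusted p = 0.911, edgeR). Hif1a, Arnt and Vegfa had interactions of 0.16, 0.01 and −0.04 with adjusted p of 0.707, 0.99995 and 0.945 (edgeR). Transcript levels do not measure how far the HIF-2α protein was blocked. Epo did not pass the filter on low counts, with 7 counts in all vehicle and 45 in all PT-2385 kidneys, and 1 and 2 in ovary.

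Targets preferred by HIF-2 had medians of −0.062 in ovary and 0.057 in kidney. The ovary median was −0.028 without ovary vehicle replicate 1 and −0.0096, −0.097 and −0.099 without ovary PT-2385 replicates 2 to 4. The kidney median was 0.090 and 0.033 without kidney vehicle replicates 2 and 3, and 0.090 and 0.014 without kidney PT-2385 replicates 1 and 4. The list had 5 of 22 lower in both organs, 6 higher in both and 11 of mixed sign. Beside Slc11a2, Adm, the vasodilator adrenomedullin, came nearest to the interaction threshold. In ovary Adm measured 27.5, 36.1, 27.95 and 42.6 CPM with vehicle, against 21.9, 22.7, 19.3 and 22.96 CPM with PT-2385. In kidney it stood at 8.03, 9.94, 10.996 and 10.5 CPM with vehicle, against 10.2, 11.1, 11.6 and 10.7 CPM with PT-2385. The ovary groups were apart, and the kidney groups overlapped. Adm fell in ovary to 0.648 of vehicle (adjusted p = 0.0101) and was at 0.15 in kidney, with an interaction of −0.77 (95% interval −1.15 to −0.40, adjusted p = 0.0769, edgeR). For HIF-1 and glycolysis targets the ovary median was 0.20, and 28 of 32 had a higher value in ovary. The interaction was called for 0, 12 had an unadjusted p under 0.05 (against 2363 of 19977 tested genes), and DESeq2 called 1. Pfkfb4, an activator of glycolysis, had 0.34 and −0.23, and Bnip3l, a mitophagy receptor, 0.09 and −0.21. The ovary median became 0.12 without ovary vehicle replicate 2, and 9 members were called without ovary vehicle replicate 3. The 12 became 6 without ovary PT-2385 replicate 3 and 7 without kidney vehicle replicate 3 or kidney PT-2385 replicate 3, and 8 without ovary PT-2385 replicate 1. The kidney median was 0.0081 and changed sign without kidney vehicle replicates 1 and 2 and kidney PT-2385 replicate 4 (−0.010, −0.0070 and −0.013).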

How the data were processed

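RNA from 8 ovary and 8 kidney samples was sequenced, 4 for each organ and treatment. The deposited files hold raw read-pair counts per gene, made by the authors with featureCounts 2.0.6 per the file headers, whose command gives no strand option, so reads of overlapping genes cannot be separated. The submitters' processing notes name FastQC, STAR and featureCounts and the build GRCm39, and the kit was a stranded mRNA kit per the labels' protocols. Symbols were matched for 52083 of 55359 identifiers (94.08%). Counts were filtered with filterByExpr (minimum count 10, minimum total 15), scaled by TMM and fitted with 4 group means in edgeR 4.0.16 (quasi-likelihood test, R 4.3.3) with Benjamini-Hochberg adjustment. The script was tested on simulated data. Alternatives used DESeq2 1.42.0, limma 3.58.1 (voom), sva 3.50.0, other scalings and filters, a replicate block and leaving out each library. Members and lists were chosen with earlier results of these data known. Named genes were those with the smallest interaction p in each direction, the smallest average p among shared genes in each direction, the HIF genes, and list members called in the interaction or, as values only, with an unadjusted interaction p under 0.01. For lists, naming was limited to genes expressed in both organs, a restriction set after values were seen, and further list members named were chosen after their values were seen. Depth limits precision most for genes of a few CPM. Some genes under the rule are not reported here.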

Additional observations from a re-analysis of the deposited data

Results flagged for a closer look

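Single libraries far from the others of their group were looked for in 332 groups of 4 (83 named genes). Chance flags about 1 in 20 groups, and the 15 found were no more than that rate gives. In PT-2385 ovaries these were Adamts4 (209.5 CPM, replicate 3), Angptl4 (246.9, replicate 4), Hist1h1d (3.01, replicate 1), Id1 (15.2, replicate 3) and Trim12c (15.5, replicate 3). In PT-2385 kidneys replicate 1 stood apart for Arhgap11a (6.54 CPM), Cmpk2 (16.6), Reep6 (104.1) and Tek (59.7). Other PT-2385 kidneys stood apart for Aqp2 (265.1 CPM, replicate 2), Ppan (24.3, replicate 2), Fbln1 (14.1, replicate 3) and Gsr (176.1, replicate 4). Vehicle kidney replicate 2 stood apart for Dixdc1 (43.4 CPM) and Herpud1 (175.3).

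The organs differed in their response, by the interaction test, for the named genes given here. The ovary response exceeded the kidney response by 1.22 log2 units for Stk32a, 0.74 for Fam189a2, 0.68 for Gramd1b, 0.64 for Reep6, 0.63 for Arhgap11a, 0.63 for Pdxk, 0.60 for Por, 0.57 for Arid5b, 0.51 for Ipmk and 0.44 for Slc11a2. It was below the kidney response for Trim34a (−1.01), Cmpk2 (−0.95), Slfn5 (−0.78), Sgk1 (−0.74) and Itpr3 (−0.54).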

How the results depend on the processing

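Interaction calls (32 in all) were 20 with median-ratio size factors, 16 with upper-quartile scaling, 20 with TMM within each organ, 50 with no filter, 62 with only genes of both organs tested, 304 with DESeq2, 2 with 1 surrogate variable, 344 without both libraries with deviating file names and 0 to 758 with 1 library left out. Ovary calls (364) were 785 with DESeq2, 110 with limma-voom and organ-specific spread, 84 with the surrogate variable, 9 fitted alone, 2153 without both libraries and 70 to 2396 with 1 left out. Kidney calls (307) were 740, 1080 with organ-specific spread, 1032 alone, 186 without both and 27 to 648. Average calls (594) were 392 with no filter, 1166 with DESeq2, 189 with the surrogate variable, 1190 without both and 141 to 1796. Shared genes (334) were 136 with the surrogate variable and 97 to 657 with 1 left out. Opposite genes (17) were 9 with upper-quartile scaling, 30 with only genes of both organs, 84 with DESeq2, 2 with the surrogate variable, 150 without both and 0 to 262. The correlation stayed between 0.116 and 0.229. With a replicate block, interaction calls were 51 and ovary calls 622. With a replicate block within treatment interaction calls were 17, with 9 higher and 8 lower in ovary than in kidney, and 11 of the 32 were kept. Same-numbered libraries correlated at −0.11 to 0.20 across treatments within ovary and −0.044 to 0.019 within kidney. Between organs they correlated at 0.035 to 0.058 with vehicle, each best with its own number, and at −0.0097 to 0.064 with PT-2385, where 1 and 4 did so. None of these sets was over 0.1 in every pair, so the numbers were not taken as pairs. The match with the own number is a hint from the data, not the design. Of 527 values of the 17 named interaction genes 355 kept their call, 172 missed the threshold and 0 reversed. Signs reversed for 3 genes that were not called: the Epas1 interaction log2 (0.018 without ovary vehicle replicate 3, 0.0451 without both libraries), the Vegfa interaction log2 (0.0417 without ovary vehicle replicate 4, 0.0037 without ovary PT-2385 replicate 4) and the Arnt interaction log2 (−0.0182 with upper-quartile scaling, −0.0009 with TMM within each organ, −0.0018 with no filter, −0.0158 with only genes of both organs, −0.0064 with the surrogate variable, and −0.0331, −0.0132, −0.0568, −0.0021, −0.0124 and −0.0159 without ovary vehicle 2 and 4, ovary PT-2385 3, kidney vehicle 1 and 2 and kidney PT-2385 1). With 1 library left out, these ran from −0.0973 to 0.018 for Epas1, −0.0974 to 0.0417 for Vegfa and −0.0568 to 0.0846 for Arnt. The cause was not tested.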
